A study of Mus musculus with 12 samples.

Results

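Genes that mark T cells, and the cytotoxic cells related to them, were measured in the hippocampus of lupus-prone mice, of the same mice without the receptor Fn14, and of non-lupus controls. The members are 9 genes, namely *Cd3d*, *Cd3e*, *Cd3g*, *Cd247*, *Cd2*, *Cd8a*, *Lck*, *Gzmb* and *Nkg7*, taken as every probe whose gene name in the array files equals one of them. They were measured by 13 probes on 31 of 43020 probe spots, out of 29608 genes in all. The samples were 12 female mice about 12 weeks old, 4 of each strain, on 6 two-colour arrays. MRL/lpr mice are homozygous for the loss-of-function lpr mutation of *Fas*, the death receptor that removes surplus lymphocytes, and they develop a lupus-like disease with large numbers of abnormal T cells in lymphoid organs. The Fn14ko mice carry the same *Fas* mutation and, in addition, a knockout of *Tnfrsf12a*, the gene of the TWEAK receptor Fn14, backcrossed to MRL/lpr for 8 generations. MRL/+ mice (labelled MRL/MpJ) have the MRL background without the lpr mutation and were bought in, whereas the lupus strains were littermates of one colony. The labels give no treatment. Fn14ko mice below are the mice so labelled.

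The targeted genes were read first. The level of *Tnfrsf12a*, in multiples of the median signal of the channel, was 4.63, 3.48, 5.09 and 2.91 in mice labelled Fn14ko, and it was well above background in 4 of 4 of them. The MRL/+ mice read 6.84, 3.43, 12.8 and 3.50 and the MRL/lpr mice 7.21, 4.60, 1.66 and 0.816. The probe may lie outside the deleted part, which is not given in the sources used here. *Fas* read 0.630, 0.420, 0.371 and 0.838 in MRL/lpr, below each of the 8 other mice, which ran from 0.906 to 2.37. Fn14ko (0.906 to 1.54) therefore did not share the low *Fas* reading of MRL/lpr, although both strains carry the lpr mutation (adjusted p = 0.334 from limma; exact permutation test, p = 0.0286). *Fas* was well above background in 1 of 4 MRL/lpr mice, in 4 of 4 Fn14ko mice and in 2 of 4 MRL/+ mice. MRL/lpr replicates 3 and 4 and MRL/+ replicate 2 read below the median of the negative-control spots of their channels, so the order of strains rests partly on readings at background. With MRL/lpr replicates 3 and 4 left out the comparison with Fn14ko passed the threshold (adjusted p = 0.0148 from limma), where 13.2% of all genes did. In that fit mice on one array were taken as independent. Over all mice, 25.6% of all genes lay wholly lower in MRL/lpr than in Fn14ko and 3.19% wholly lower than in MRL/+.

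A T cell senses antigen through the T cell receptor, whose signal is passed on by the CD3 chains (gamma, delta and epsilon, from *Cd3g*, *Cd3d* and *Cd3e*) and by the zeta chain from *Cd247*. The cytoplasmic tails of these chains carry the immunoreceptor tyrosine-based activation motif, which the kinase Lck phosphorylates, while CD2 and CD8 help the cell to hold on to its target and to dock on MHC molecules. *Gzmb* (the protease granzyme B) and *Nkg7* (a protein of cytotoxic granules) belong to the killing machinery of CD8 T cells and natural killer cells. In the normal brain T cells are few and sit mostly in the meninges and choroid plexus, and in MRL/lpr mice T cells have been described around these structures.

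The probes of 3 members are shown because each spans an intron in the genome and so matches a spliced message. In the *Cd247* and *Cd3d* probes, the capitals mark the pair of in-frame repeats of the activation motif, each a tyrosine codon (TAC or TAT), 2 further codons and a leucine codon. The *Cd2* probe is the one that was printed on 10 spots of each array, and it has no such pair.
Cd247: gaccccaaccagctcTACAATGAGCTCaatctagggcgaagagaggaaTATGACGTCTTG
Cd3d: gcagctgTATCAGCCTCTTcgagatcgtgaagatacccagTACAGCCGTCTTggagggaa
Cd2: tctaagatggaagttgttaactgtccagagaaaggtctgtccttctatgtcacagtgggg

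Each probe has 60 bases. In mm9 coordinates of the array files, the *Cd247* probe spans chr1:167786567-167787585 on the plus strand, the *Cd3d* probe chr9:44794171-44794402 on the plus strand, and the *Cd2* probe chr3:101083802-101086981 on the minus strand. These spans of 1019, 232 and 3180 bases exceed the probe's length, which places an intron inside each. The second *Cd247* probe, made for another transcript of the gene, lies downstream at chr1:167800324-167800383. The remaining members have probes at chr9:44806828-44806887 (*Cd3e*, minus strand), chr9:44777868-44777927 (*Cd3g*, minus), chr6:71323885-71323944 and chr6:71328911-71328970 (*Cd8a*, plus), chr4:129225614-129225673 (*Lck*, minus), chr14:56877916-56877975 (*Gzmb*, minus) and chr7:50693148-50693207 and chr7:50693530-50693589 (*Nkg7*, plus). Exon and UTR annotation of mm9 was not used here.

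Few of the 9 genes gave a signal that could be told from background, and none was called different between strains. *Cd3e* and *Nkg7* were well above background in 11 of 12 mice each and *Lck* in 8, *Cd3d*, *Cd247* and *Cd2* in 5 each, *Gzmb* in 1 and *Cd3g* and *Cd8a* in 0. The call comes from the scanner software, which compares a spot's signal with its own estimate of background and noise; a probe with several spots counts as well above background where most of its spots do, and a gene where any of its probes does. By strain, 2 to 6 of the 9 genes were well above background per MRL/lpr mouse, 4 to 7 per Fn14ko mouse and 1 to 4 per MRL/+ mouse. Over all genes of the array, these shares ran from 23.1% to 65.8%, from 52.8% to 67.8% and from 32.8% to 66.8%.

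**Figure D1:**
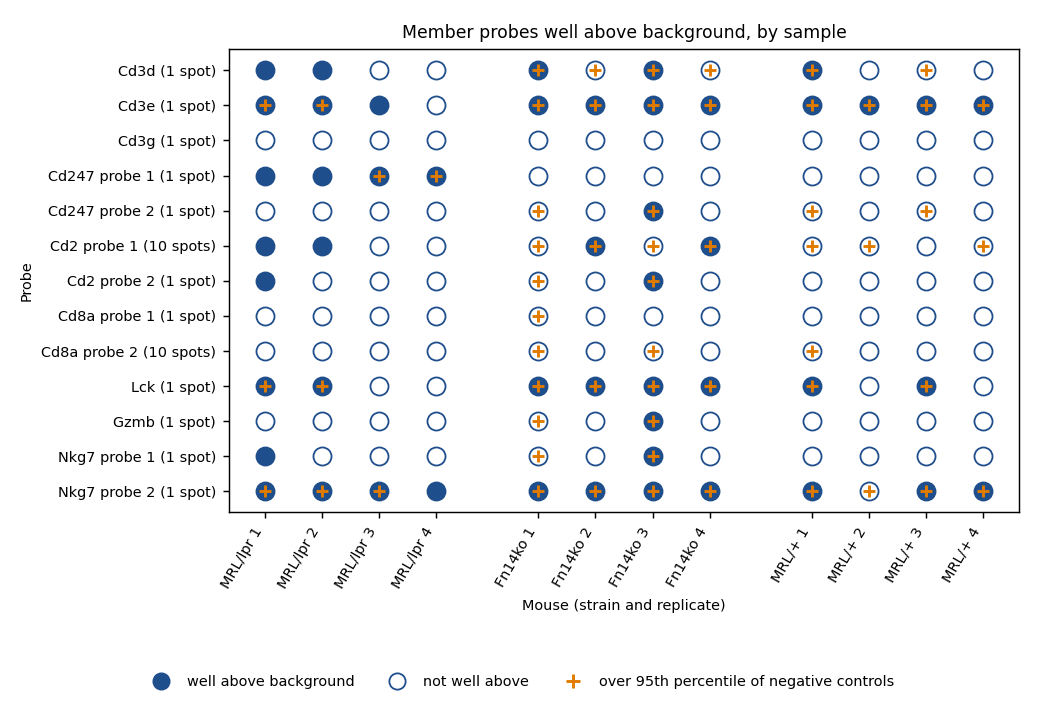
Rows are the 13 member probes and columns the 12 mice. A filled circle marks a probe well above background, an open circle one that was not, and an orange cross a level over the 95th percentile of the negative-control spots of that channel. *Cd3g* and both *Cd8a* probes have no filled circle, and the first *Cd247* probe is filled in the 4 MRL/lpr mice and in no other mouse.

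After limma with Benjamini-Hochberg adjustment over 29608 genes, 0 of 9 members passed an adjusted p of 0.05 for MRL/lpr against MRL/+, where 0.0135% of all genes did. For MRL/lpr against Fn14ko 0 of 9 passed, against 0.0675% of all genes, and for Fn14ko against MRL/+ 0 of 9 passed, against 0% of all genes. At an unadjusted p of 0.05, in the same order, 1 (*Cd247*), 2 (*Cd247* and *Cd3g*) and 0 members passed, beside 5.34%, 17.8% and 0.638% of all genes. A member's groups of 4 did not overlap in 1 case for MRL/lpr against Fn14ko (*Cd247* higher, beside 4.68% of all genes) and in 1 case for Fn14ko against MRL/+ (*Lck* higher, beside 5.79%). No member lay wholly lower in these 2 comparisons, where 25.6% and 1.97% of all genes did. For MRL/lpr against MRL/+ there was no such member, where 2.19% of all genes lay wholly higher and 3.19% wholly lower.

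Those counts were read on arrays of unequal quality. The array shared by MRL/lpr replicates 3 and 4 was weak, with 25.2% and 19.6% of probe spots well above background and a median foreground of 1.93 and 1.73 times background, compared with 29.6% to 68.1% and 4.42 to 12.6 times in the other 10 channels. Negative-control spots, which bind no transcript, read 0.0279 to 0.498 channel medians in the 6 Cy3 channels and 0.210 to 1.39 in the 6 Cy5 channels, with the highest values in the Cy5 mice of MRL/+ (1.39 and 1.31). Odd replicates were in Cy3 and even ones in Cy5. Both arrays of a strain were on one slide, so slide and strain cannot be told apart, and in whole tissue fewer T cells and less RNA per cell cannot be told apart either. On the weak array some spots that the software called well above background read below their local background, the lowest at −1.24 and −2.09 channel medians. The part of these differences in the results below was not tested. Results of members that rest on the weak array are given with and without it, and medians and counts over gene lists only with it. In the fit without it the array correlation was estimated below 0 and set to 0, so that mice on one array were taken as independent.

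Among the receptor chains, *Cd247* was the one with a probe well above background in all 4 MRL/lpr mice and in none of Fn14ko and MRL/+, and its 2 probes differed. The probe printed above read 0.648, 0.747, 19.4 and 16.7 channel medians in MRL/lpr replicates 1 to 4 and was well above background in all 4. In Fn14ko it read 0.0229, 0.209, 0.0389 and 0.259, and in MRL/+ 0.119, 0.773, 0.136 and 0.750, with 0 of 4 well above background in either strain. MRL/lpr thus lay wholly above Fn14ko, while replicates 1 and 2 of MRL/lpr lay below the Cy5 mice of MRL/+, and the high readings were those of the weak array. Before scaling, the background-subtracted intensity was 179.5, 85.6, 478 and 377 in MRL/lpr, 3.83 to 32.5 in Fn14ko and 18.1 to 101 in MRL/+. The channel medians by which these were divided were 277, 115, 24.6 and 22.6 in MRL/lpr and 110 to 167 in the other strains, so that replicates 3 and 4 stood further above replicates 1 and 2 after scaling than before.

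Since the probe was not well above background in the other strains, its fold was taken against the lowest signal called well above background there. Against that limit it stood 10.8-fold higher in MRL/lpr than in Fn14ko and 6.36-fold higher than in MRL/+. Without the weak array these folds fell to 2.12-fold and 1.25-fold. The limit is not a strict bound, as a spot above it need not be called. In MRL/+ replicate 2, where it was 1.92 channel medians, an *Nkg7* probe at 2.11 was not well above background. The fit over all probes gave adjusted p = 0.157 and 0.773 with limma, and the exact permutation test p = 0.0286 and 0.171. Leaving out the weak array, the adjusted p over all probes was 0.00116 and 0.0888. A probe that was well above background in all 4 MRL/lpr mice and in no mouse of either other strain was found 189 times in 39429 probes (0.479%). The negative controls of the MRL/lpr slide had a wide upper range. Their 95th percentile was 0.910, 1.62, 10.4 and 8.45 channel medians in replicates 1 to 4, compared with 0.0896 to 1.68 in the other 8 channels, so *Cd247* exceeded it in replicates 3 and 4 and not in replicates 1 and 2.

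The second *Cd247* probe read 0.116, 0.1505, 1.56 and 0.969 channel medians in MRL/lpr, 0.195, 0.286, 0.207 and 0.245 in Fn14ko and 0.197, 0.573, 0.178 and 0.509 in MRL/+. It was well above background in 1 of 12 mice, and in none of MRL/lpr. MRL/lpr replicates 1 and 2 were the lowest of all 12 mice on this probe, whereas they lay above all Fn14ko mice on the first. Counting either probe, *Cd247* was well above background in 4 of 4 MRL/lpr (by the first probe only), 1 of 4 Fn14ko (by the second only) and 0 of 4 MRL/+ mice. The fitted differences of the gene, averaged over both probes, therefore rest on readings at background and do not replace the folds against the limit above. The fit gave 3.55 on the log2 scale for MRL/lpr over Fn14ko (standard error 1.09, adjusted p = 0.227 from limma, higher in 4 of 4 mice) and 2.64 over MRL/+ (standard error 1.09, adjusted p = 0.847). The first of these passed the threshold in 4 other fits. It was 3.55 with adjusted p = 0.0407 from limma when mice on one array were taken as independent (9.78% of all genes passed). Without MRL/lpr replicate 2 it was 4.24 with adjusted p = 0.0201 (9024 of 29608 genes passed). Without the weak array it was 1.28 with adjusted p = 0.0329 (13.2% of genes passed). There too mice on one array were taken as independent, as the array correlation was set to 0. With the negative estimate of the array correlation kept there, the adjusted p was 0.0016.

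**Figure D2:**
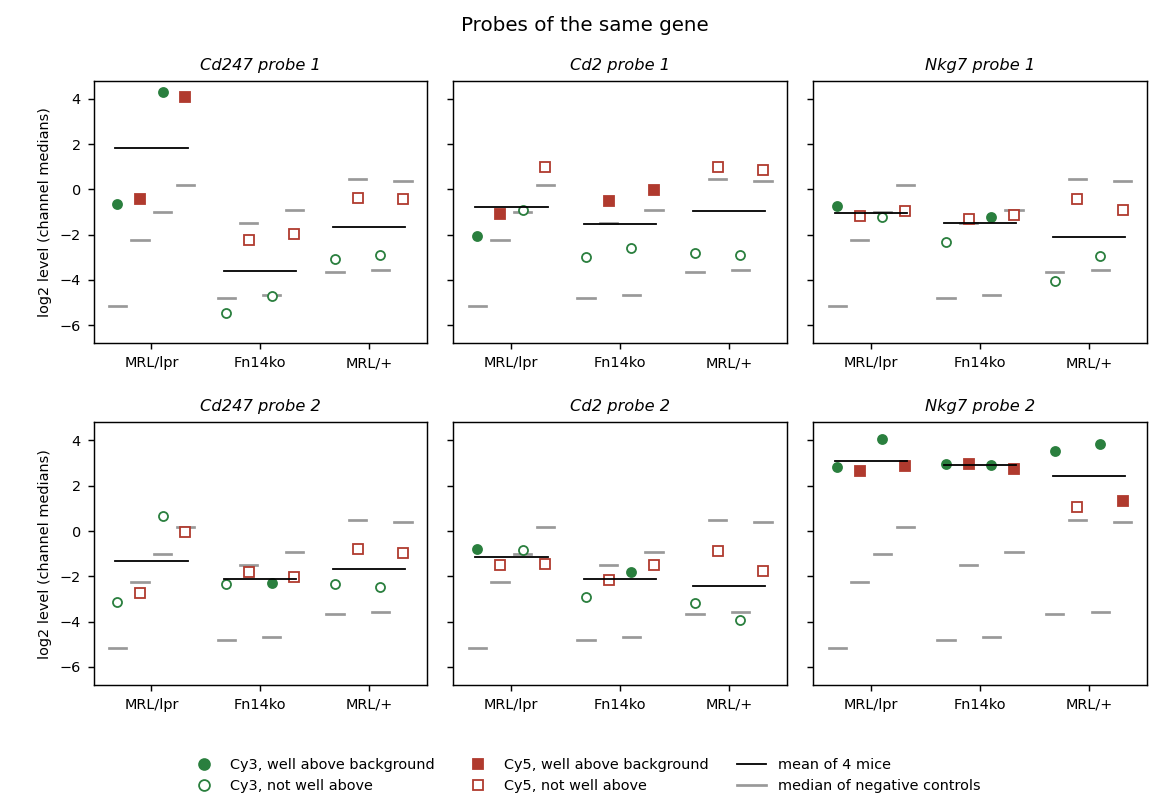
The y axis gives the log2 level in channel medians for the 2 probes of *Cd247*, *Cd2* and *Nkg7*, with 1 point per mouse, circles for Cy3 and squares for Cy5, filled where well above background. Black lines are means of 4 mice and grey lines the median of the negative controls of each channel. The first *Cd247* probe stands at 16.7 and 19.4 channel medians in MRL/lpr replicates 3 and 4, and its second probe does not exceed 1.56.

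The CD3 chains themselves did not separate the strains. *Cd3e*, the epsilon chain, read 2.35, 2.52, 5.64 and 2.29 channel medians in MRL/lpr, 2.79, 2.31, 2.14 and 1.65 in Fn14ko and 3.22, 2.10, 4.82 and 2.29 in MRL/+. All 3 strains overlapped, with means of 3.20 ± 1.63, 2.22 ± 0.47 and 3.11 ± 1.24 (SD, n = 4). The log2 fold change was 0.01 (95% interval −1.31 to 1.33) for MRL/lpr against MRL/+, 0.44 (−0.88 to 1.75) against Fn14ko and −0.43 (−1.74 to 0.89) for the latter against MRL/+.

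*Cd3d*, the delta chain, read 0.675, 0.499, 0.599 and 0.926 in MRL/lpr, 0.284, 0.537, 0.488 and 0.661 in Fn14ko and 0.291, 1.05, 0.242 and 1.02 in MRL/+. It was well above background in 2, 2 and 1 of 4 mice. In MRL/+ its level followed the dye, with the Cy5 readings below the negative controls of their channels. The log2 fold changes were 0.33 (standard error 0.75), 0.48 (0.75) and −0.15 (0.75) in the order of comparisons above, with adjusted p of 0.706 to 1.000 from limma.

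*Cd3g*, the gamma chain, was not well above background in any of 12 mice. It read 0.0988, 0.197, 1.51 and 1.63 in MRL/lpr, 0.0516, 0.119, 0.0179 and 0.146 in Fn14ko and 0.0700, 0.434, 0.113 and 0.504 in MRL/+. The 2 values above 1 were those of the weak array, and no fold is given as both sides were at background (MRL/lpr against Fn14ko, adjusted p = 0.279 from limma; exact permutation test, p = 0.0857). Without MRL/lpr replicate 2 this comparison passed the threshold (adjusted p = 0.0281), together with *Cd247* and the 9024 genes counted above, and it passed without the weak array where the negative array correlation was kept (adjusted p = 0.0352).

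Of the surface molecules, *Cd2* was printed on 10 spots, which gives its technical error. On this probe MRL/lpr read 0.239, 0.466, 0.524 and 1.99 channel medians, Fn14ko 0.125, 0.692, 0.168 and 0.969 and MRL/+ 0.141, 1.95, 0.133 and 1.82. The Cy5 mouse of each array read higher than the Cy3 mouse on all 6 arrays, and these are different mice. The spots of one mouse had a coefficient of variation of 4.82% to 40.9%. Most of the unflagged spots were well above background in MRL/lpr replicates 1 and 2 (5 and 6 of 9 spots) and in the Cy5 mice of Fn14ko (8 and 9 of 10), and 0 spots were in any MRL/+ mouse. The single spot of its other probe read 0.358 to 0.584 in MRL/lpr, 0.132 to 0.355 in Fn14ko and 0.0660 to 0.539 in MRL/+. On that spot the 4 MRL/lpr mice lay just above the 4 Fn14ko mice (adjusted p = 0.614 from limma over all probes; exact permutation test, p = 0.0286), and it was well above background in 1 mouse of either strain. Over both probes the log2 fold change was 0.91 (standard error 0.98) for MRL/lpr against Fn14ko, with adjusted p = 0.599 from limma.

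*Cd8a*, the alpha chain of the CD8 coreceptor, stayed at background. Its 10-spot probe read 0.161, 0.199, 0.596 and 0.639 in MRL/lpr, 0.119, 0.253, 0.193 and 0.312 in Fn14ko and 0.142, 0.615, 0.119 and 0.608 in MRL/+, with at most 2 of 10 spots well above background in any mouse. Its other probe ran from 0.0559 to 1.22 and was not well above background in any mouse. The 10 spots of the first probe had a coefficient of variation of 59.2% in MRL/lpr replicate 3, the widest of the 12 mice.

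*Lck*, the kinase that starts receptor signalling, was the member whose readings in Fn14ko and MRL/+ did not overlap. It read 2.27, 1.77, 2.27 and 1.68 channel medians in Fn14ko and 1.05, 0.837, 1.4996 and 1.01 in MRL/+. The MRL/lpr mice read 2.21, 1.92, 0.758 and 0.685. Fn14ko lay wholly above MRL/+, and MRL/lpr fell into the 2 mice of the good array, at the level of Fn14ko, and the 2 of the weak array, below all MRL/+ mice. The means were 2.00 ± 0.32, 1.10 ± 0.28 and 1.39 ± 0.79 (SD, n = 4). The difference between Fn14ko and MRL/+ was 0.88 on the log2 scale (standard error 0.55, 95% interval −0.28 to 2.04, adjusted p = 0.854 from limma, higher in 4 of 4 mice; exact permutation test, p = 0.0286). In the Cy5 mice of MRL/+ the level lay below the negative controls of their channels, and the probe was well above background in the 2 Cy3 mice of MRL/+ and in all 4 Fn14ko mice. The lowest signal called well above background in those Cy5 channels of MRL/+ was 1.92 and 1.78 channel medians. The Cy5 readings of Fn14ko (1.77 and 1.68) lay below that, so such a level might not have been called there. In MRL/lpr the probe was well above background on the good array only.

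Without the weak array, *Lck* passed the threshold for Fn14ko against MRL/+ (0.88, adjusted p = 0.0224 from limma) and for MRL/lpr against MRL/+ (0.94, adjusted p = 0.0143). In that fit, 26% and 33.9% of all genes passed. The array correlation was set to 0 there, so mice on one array, those of the single remaining MRL/lpr array included, were taken as independent. Scaling each channel to its median over spots valid in all 12 mice turned the first of these to −0.04. *Cd3g* and *Cd247* passed as well for Fn14ko against MRL/+ without the weak array, lower in the former (adjusted p = 0.0261 and 0.0419), although neither was well above background in any MRL/+ mouse.

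Of the cytotoxic members, *Nkg7* was read by probes that disagreed in whether they saw a signal. Its probe at chr7:50693530-50693589 was well above background in 11 of 12 mice and read 7.08, 6.197, 16.5 and 7.28 channel medians in MRL/lpr, 7.68, 7.83, 7.65 and 6.68 in Fn14ko and 11.7, 2.11, 14.3 and 2.52 in MRL/+. Fn14ko spanned a narrow range, whereas in MRL/+ the Cy3 mice stood above and the Cy5 mice below all of them. The probe at chr7:50693148-50693207 was well above background in 2 of 12 mice and ran from 0.0601 to 0.755. Over both probes the log2 fold change was 0.55 (95% interval −1.20 to 2.30) for MRL/lpr against MRL/+, 0.21 (−1.54 to 1.96) against Fn14ko and 0.33 (−1.42 to 2.09) for the latter against MRL/+.

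*Gzmb* was well above background in 1 of 12 mice, Fn14ko replicate 3, at 0.274 channel medians. It ran from 0.142 to 0.506 in MRL/lpr, from 0.121 to 0.275 in Fn14ko and from 0.0779 to 0.559 in MRL/+, and the Cy5 mouse was higher than the Cy3 mouse on 6 of 6 arrays. With 11 of 12 readings not well above background, no direction is read from it, and the adjusted p of the 3 comparisons was 0.980 to 1.000 with limma.

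**Figure D3:**
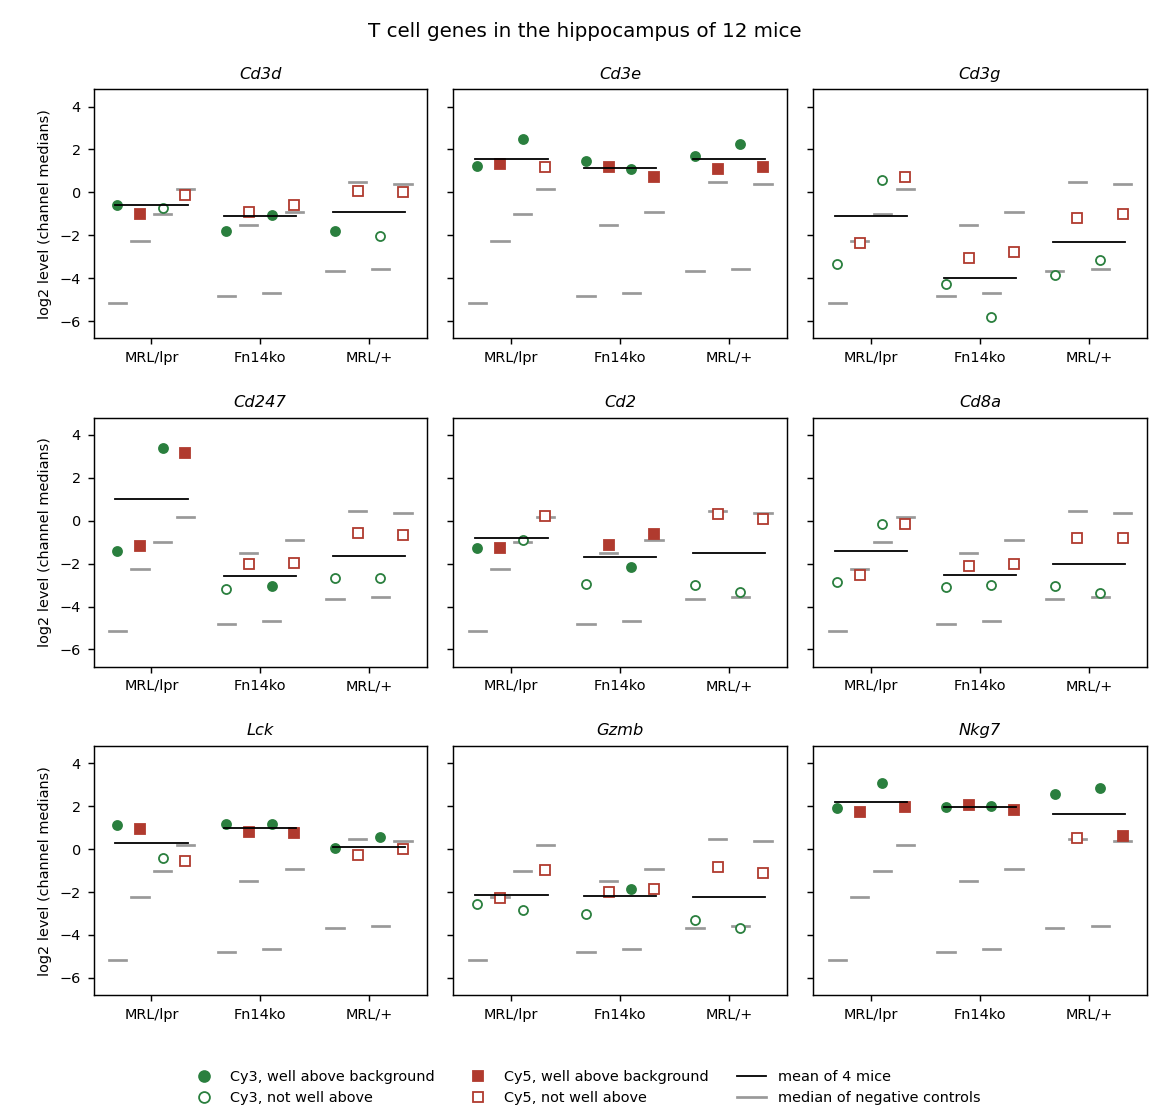
Each panel gives 1 gene, averaged over its probes, as the log2 level in channel medians for 12 mice, with circles for Cy3 and squares for Cy5, filled where well above background. Black lines are means of 4 mice and grey lines the negative-control median of each channel. *Cd3e* lies above the grey lines in all 12 mice, and most values of *Cd3g*, *Cd8a* and *Gzmb* follow them.

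Set against the negative controls, 3 of the 13 member probes exceeded their median in each Cy5 mouse of MRL/+ and 10 or 11 in the Cy3 mice, while 38.4% to 41.1% and 86.1% to 87% of all probes did. In Fn14ko these were 5 and 6 probes in Cy5 (60.4% and 66.1% of all probes) and 11 and 12 in Cy3 (92.9% and 92.8%), and in MRL/lpr 6 and 8 in Cy5 (42.3% and 74%) and 11 and 13 in Cy3 (81.8% and 91.8%). The lower counts in Cy5 were thus shared with the probes of the whole array.

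All 9 members had a log2 fold change above 0 for MRL/lpr over MRL/+, with a median of 0.55, while 37.5% of all genes were above 0, with a median of −0.24. This count and those below include *Cd3g* and *Cd8a*, well above background in 0 of 12 mice, and *Gzmb*, in 1 of 12. The sign of such readings is no direction, and *Cd3e* stood at 0.01. With the weak array left out 5 of 9 were above 0, with a median of 0.15 against −0.31 over all genes, and after quantile normalization 5 of 9. Against Fn14ko 8 of 9 were above 0, with a median of 0.48, beside 48.3% and −0.07 over all genes, and 6 of 9 without the weak array. For Fn14ko against MRL/+ 3 of 9 were above 0, with a median of −0.22, beside 49.5% and −0.02 over all genes. Scaling to spots valid in all mice moved the median of all genes to 0.20, 1.33 and −0.97, and the members' medians to 0.70, 1.91 and −1.35. The 2 comparisons with MRL/lpr share its 4 samples, and each strain enters a pair of comparisons.

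**Figure D4:**
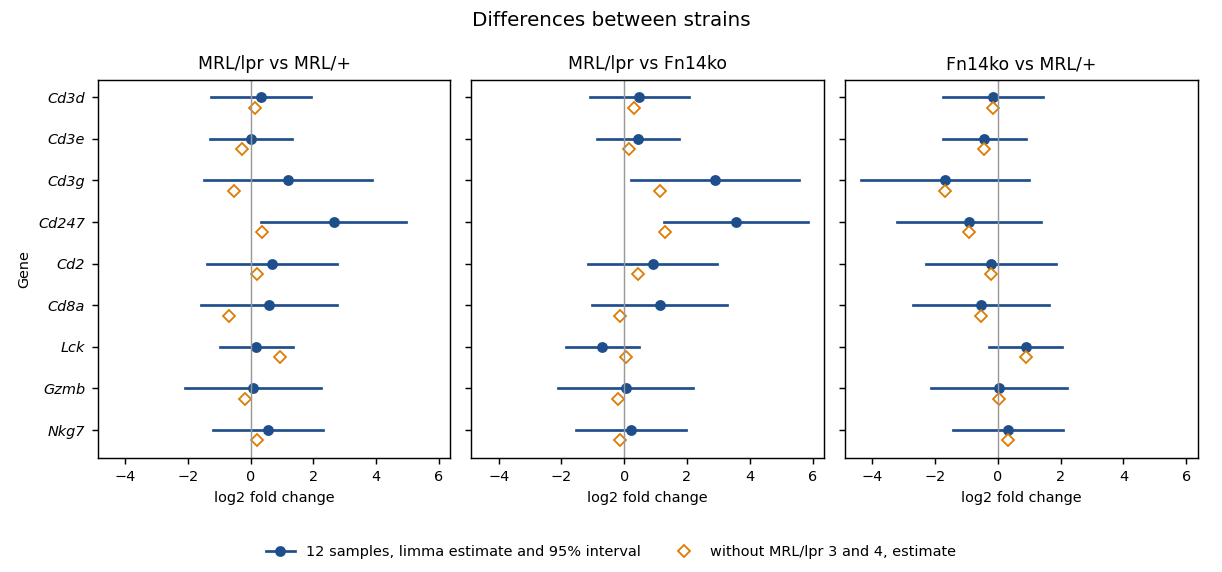
The x axis gives the log2 fold change of each member in the 3 comparisons. Filled circles with bars are the limma estimate over 12 mice and its 95% interval, and open orange diamonds the estimate without MRL/lpr replicates 3 and 4. For MRL/lpr against Fn14ko, *Cd247* moves from 3.55 to 1.28. *Cd3g*, *Cd8a* and, but for 1 mouse, *Gzmb* are drawn from values not well above background, as are *Cd247* and *Cd2* in MRL/+, so that no direction is read from these points.

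The wider T cell programme was read from 6 lists of 78 genes, of which 77 were found on the array. They hold the receptor complex and coreceptors, receptor signalling, cytotoxic and natural killer effectors, lineage factors, checkpoints and cytokine receptors, and trafficking genes, none of them a member. With limma, 0 of 77 passed the threshold in any comparison, and 7, 9 and 1 had an unadjusted p under 0.05 in the order of comparisons above, beside 5.34%, 17.8% and 0.638% of all genes. Their median log2 fold change was 0.22 for MRL/lpr against MRL/+, 0.54 against Fn14ko and −0.42 for the latter against MRL/+, where the medians of all genes were −0.24, −0.07 and −0.02. Of the 77 genes, 6 were well above background in all 12 mice and 16 in none.

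By list, the cytotoxic and natural killer effectors had a median of 0.64 for MRL/lpr against MRL/+ (12 of 14 above 0, beside 37.5% and a median of −0.24 over all genes) and of 1.02 against Fn14ko (11 of 14 above 0, beside 48.3% and −0.07). Their summed level was 11.99 to 13.04 channel medians in the MRL/lpr mice of the good array and up to 42.9 with the weak array, compared with 7.42 to 10.4 in Fn14ko and 5.99 to 11.6 in MRL/+. Of the 14 genes, 2 to 11 were well above background per MRL/lpr mouse, 4 to 7 per Fn14ko mouse and 0 to 6 per MRL/+ mouse. The counts above 0 thus include readings at background, whose sign is no direction. Receptor signalling had medians of 0.18 and 0.46, lineage factors 0.46 and 0.53, checkpoints 0.06 and 0.74, and trafficking genes 0.59 and 1.16. The receptor complex and coreceptors had −0.32 and 0.56.

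Among genes of these lists given whatever their values, the T cell chemokine *Ccl5* read 3.28, 1.92, 1.10 and 1.03 channel medians in MRL/lpr, 1.18, 1.35, 2.33 and 1.48 in Fn14ko and 0.407, 0.762, 0.479 and 0.707 in MRL/+. Both lupus strains lay wholly above MRL/+ (log2 fold changes 1.52 and 1.43, standard error 0.65 each, adjusted p = 0.884 and 0.854 from limma; exact permutation tests, p = 0.0286 each). *Ccl5* was well above background in 2 of 4 MRL/lpr, 4 of 4 Fn14ko and 2 of 4 MRL/+ mice, and not in MRL/lpr replicates 3 and 4. The Cy5 readings of MRL/+ and that of MRL/lpr replicate 4 were below the negative controls of their channels. Of all genes, 2.19% and 5.79% lay wholly higher in these comparisons. Both comparisons passed the threshold once the weak array was left out, with 2.14 and 1.43 (adjusted p = 0.00088 and 0.0190 from limma). In that fit 33.9% and 26% of all genes passed.

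The perforin gene *Prf1*, which makes the pore for granzymes, read 1.25, 1.41, 11.8 and 7.17 in MRL/lpr, 1.49 to 2.08 in Fn14ko and 1.31 to 1.74 in MRL/+. Its high readings, like those of *Cd247*, were those of the weak array. Without that array its log2 fold change turned from 1.15 to −0.25 against MRL/+ and from 1.02 to −0.38 against Fn14ko. *Zap70*, the kinase that docks on the phosphorylated zeta chain, read 4.10, 3.02, 1.52 and 1.22 in MRL/lpr, 1.92 to 3.57 in Fn14ko and 1.21 to 2.32 in MRL/+, so that, as for *Lck*, the weak array held the low readings of MRL/lpr. With that array left out *Zap70* passed the threshold against MRL/+ in MRL/lpr (1.06, adjusted p = 0.00908 from limma) and in Fn14ko (0.63, adjusted p = 0.0493). In that fit 33.9% and 26% of all genes passed. The Cy5 mice of MRL/+ were not well above background for *Zap70* and lay below the negative controls of their channels.

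*Ptprc* (CD45, carried by all white blood cells, microglia included) was between 0.933 and 1.76 in all 12 mice. *Cd4*, which microglia can also express, was well above background in all 12 mice (8.29 to 35.7), as was *Thy1*, which neurons express strongly (34.0 to 698, lowest in the weak array). For these 3 genes, limma gave adjusted p of 0.345 to 1.000 over the 3 comparisons.

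Markers of other cells were read beside the members, and 0 genes of the 9 other lists passed the threshold in any comparison. B cell and plasma cell markers (8 of 8 found) summed to 8.85 to 25.1 channel medians in MRL/lpr, to 2.47 to 3.47 in Fn14ko and to 2.49 to 6.24 in MRL/+. Choroid plexus markers (9 found) summed to 55.4 to 630 in MRL/lpr, to 11.02 to 145 in Fn14ko and to 13.6 to 28.7 in MRL/+. Of these, 9 of 9 had a log2 fold change above 0 against either strain, beside 37.5% (MRL/+) and 48.3% (Fn14ko) of all genes. Per mouse, 2 to 9 of these 9 genes were well above background in MRL/lpr, 3 to 9 in Fn14ko and 1 to 8 in MRL/+. The sums of both lists were therefore higher in every MRL/lpr mouse than in every MRL/+ mouse. Of single genes over the whole array, 2.19% lay so.

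The sums of microglia and of striatum markers were lower in every MRL/lpr mouse than in every Fn14ko mouse and overlapped with MRL/+. Of single genes over the whole array, 25.6% lay wholly lower in MRL/lpr than in Fn14ko. Microglia markers (8 found) summed to 28.6 to 212 in MRL/lpr, to 241 to 306 in Fn14ko and to 83.5 to 292 in MRL/+, and without the weak array the lowest MRL/lpr sum was 183. Striatum markers (7 found), which mark tissue beside the hippocampus, summed to 15.2 to 63.1, 168 to 650 and 34.3 to 202. Hippocampal neuron markers (11 found) were well above background for 5 to 11 genes in each mouse, beside 23.1% to 67.8% of all genes. The tissue label is hippocampus, whereas the free-text descriptions of the samples mention the cortex. No list of cortex markers was read, so these counts do not tell the 2 tissues apart. The hippocampal list had a median log2 fold change in MRL/lpr of 1.26 against MRL/+, beside −0.24 over all genes. Of its 11 genes 8 were above 0 and 6 had an unadjusted p under 0.05 with limma, beside 37.5% and 5.34% of all genes. Against Fn14ko its median was 1.45, beside −0.07 over all genes. There 7 were above 0 and 5 had an unadjusted p under 0.05, beside 48.3% and 17.8%. These values are given with the weak array only.

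Neutrophil, erythroid, meningeal and brain endothelial markers overlapped between MRL/lpr and MRL/+ over all mice. In the MRL/lpr mice of the good array alone, neutrophil markers summed to 9.60 to 13.0 channel medians (2.71 to 5.67 in MRL/+), erythroid markers to 1751 to 2434 (231 to 1103) and meningeal markers to 68.4 to 190 (13.9 to 60.5). These sums lay above MRL/+, while endothelial markers still overlapped. The share of all genes lying so in the mice of this single array is not given, so no difference is read from it. Over all mice, 6 of 7 neutrophil, 2 of 5 erythroid and 4 of 8 meningeal genes had a log2 fold change above 0 against MRL/+, beside 37.5% of all genes. The part of these cell types in the values of the members was not tested.

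As a description of pattern, the mean log2 level of the 3 members that were well above background in at least 6 mice (*Cd3e*, *Lck* and *Nkg7*) was compared with 14715 other named genes that were so too. The closest over 12 samples were *Zfp488* (Pearson's r = 0.957), *Acad10* (0.956), *Nhsl2* (0.946), *Nop10* (0.944) and *Marchf9* (0.937). These samples share arrays, dyes and slides.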

How the data were processed

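Hippocampal RNA of 12 mice was hybridized to 6 Agilent two-colour arrays, 2 mice of one strain to an array. The authors scanned them with Agilent Feature Extraction 12.1 and deposited, for each spot and dye, foreground and local background intensity on a linear scale, not normalized between channels. The deposited files also give other columns, namely flags for outlying and saturated spots (0 were saturated), the well-above-background call, gene names and mm9 positions. The authors' processed signal intensity was used as an alternative, and the software's own comparison columns (log ratios and p-values of the dyes) were not used.

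From these intensities, local background was subtracted, flagged spots were dropped, and signals were divided by the median of their channel over probe spots. Spots were averaged to probes and probes to genes before taking logs; values under 0.01 channel medians were set to 0.01 before log2. A fold change is a difference of these log2 values. The methods of the study remove spots under 2 times background, which leaves 2 of the 9 members in all 12 mice, so that filter is an alternative.

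limma 3.58.1 (statmod 1.5.0, R 4.3.3) was fitted to all 12 samples and 29608 genes with dye as covariate, array as random block (estimated correlation 0.656; an estimate below 0 was set to 0) and a trend, with Benjamini-Hochberg adjustment and a threshold of 0.05. For single members, an exact permutation test (two-sided) set 4 mice against 4; its smallest p is 0.0286, it takes mice on one array as independent, and 2 arrays against 2 could not go below 0.333. Over members, 27 comparisons were made. The fit was tested on simulated data. The fold against a limit takes, per dim channel, the higher of the probe's own level and the lowest signal among probe spots well above background. It uses means of log2 values and is not a strict bound. The few arrays and their signal over background limit the precision. Mice of a strain are separate animals, and the p-values treat slide as if it did not matter.

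The members, lists and alternatives were chosen with earlier results of these data known. Named genes are the 9 members, up to 3 genes per list and comparison past the threshold (there were none), *Ptprc*, *Cd4*, *Zap70*, *Thy1*, *Prf1* and *Ccl5*, the targeted genes, and the 5 genes most like the members in pattern. There were 15 lists, matched by symbol or by synonym in a RefSeq table of GRCm38.p6, from which no coordinate was taken. Alternatives were another block, filter, background correction, scaling, signal or test, and leaving out samples or the weak array. Python 3.11.15 with numpy, pandas, scipy and matplotlib did the rest.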

Additional observations from a re-analysis of the deposited data

Results flagged for a closer look

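Among the 27 groups of 4 mice (9 genes in 3 strains), 2 held a mouse whose gap to the next, divided by the range of its group, exceeded Dixon's critical value. Chance gives about 1 such group in 20. The *Cd3e* level of MRL/lpr replicate 3, at 5.64 channel medians, was the highest of its strain (gap over range 0.893), and it was read on the weak array. The *Gzmb* level of Fn14ko replicate 1, at 0.121 channel medians, was the lowest of its strain (gap over range 0.887), and it was not well above background.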

How the results depend on the processing

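Signal over background, the weak array and the array block all limited the results. *Cd3g* and *Cd8a* were not well above background in any mouse and *Gzmb* in 1, so the values of these 3 genes below are differences between readings at background, whose sign is no direction. Of 324 values of single members with 1 mouse left out, 299 kept their direction and their side of the threshold, 23 turned and 2 newly passed. Of 392 values under other alternatives, 329 kept both, 50 turned and 13 newly passed. Causes were not tested. Counts below follow the order MRL/lpr against MRL/+, MRL/lpr against Fn14ko, Fn14ko against MRL/+.

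Genes called moved to 280 and 2895 without the array block (members, 1 against Fn14ko), to 7 and 4 with the filter of the methods, and to 7 with normexp in the first comparison. They moved to 55 with quantile normalization there, to 119 and 101 with the median over valid spots, to 0 and 7 with the processed signal, and to 59 against Fn14ko with probes well above background in at least 4 mice. The methods' t-test, unadjusted, called 1086, 8760 and 2312 genes (members, 1 in the last), and 0 and 1 in the first pair after Benjamini-Hochberg. Leaving out the weak array, 10009, 3900 and 7707 genes and 1, 1 and 3 members were called. Added after the data were seen, keeping the negative array correlation there gave 15154, 11458 and 18918 genes and 1, 2 and 3 members, subtracting negative controls gave 79 and 56 genes, and Cy3 mice alone 0 and 0.

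With 1 mouse left out, genes called ran from 3 to 227 and from 6 to 9024 in the first pair, highest without MRL/lpr replicate 2, and members called against Fn14ko from 0 to 2. Replicate numbers did not pair the mice (correlations −0.81 to 0.61); with the replicate block 48 genes were called against Fn14ko and 0 members in any comparison.

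For MRL/lpr against MRL/+, log2 fold changes turned to −0.47 (*Cd3d*), −0.048 (*Cd2*), −0.35 (*Lck*) and −0.088 (*Gzmb*) with quantile normalization, to −0.37 (*Cd3e*) with normexp, to −0.15 (*Gzmb*) with valid spots, and to −0.28 (*Nkg7*) with the processed signal. Without the weak array, with either correlation, they turned to −0.27 (*Cd3e*), −0.54 (*Cd3g*), −0.68 (*Cd8a*) and −0.18 (*Gzmb*), in Cy3 mice to −0.11 (*Cd3e*) and −0.19 (*Nkg7*), and in the methods' t-test to −0.23 (*Gzmb*). Leaving out 1 mouse gave −0.22 to 0.22 (*Cd3e*), −0.013 to 0.37 (*Lck*) and −0.27 to 0.39 (*Gzmb*).

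Against Fn14ko they turned to −0.24 (*Cd3d*) and −0.90 (*Gzmb*) with quantile normalization, to 0.73 (*Lck*) with valid spots, and to −0.17 and −0.47 (*Nkg7*) with normexp and the processed signal. Without the weak array they turned to −0.14 (*Cd8a*), 0.059 (*Lck*), −0.21 (*Gzmb*) and −0.13 (*Nkg7*), and in Cy3 mice to −0.22 (*Gzmb*). Leaving out 1 mouse gave −0.29 to 0.44 (*Gzmb*) and −0.054 to 0.49 (*Nkg7*).

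For Fn14ko against MRL/+ they turned to −0.47, −0.070, −0.58, −0.71 and −0.034 (*Nkg7*; filter of the methods, quantile, valid spots, Cy3 mice, t-test), to 0.23 (*Cd8a*, quantile) and 0.15 (*Cd8a*, Cy3 mice), and to −0.037 (*Lck*) and −1.34 (*Gzmb*) with valid spots. They turned to 0.25, 0.19 and 0.49 (*Cd3d*; processed signal, negative controls subtracted, Cy3 mice), 0.62 and 0.34 (*Cd2*; Cy3 mice, single-spot probe) and −0.39 (*Gzmb*, t-test). Leaving out 1 mouse gave −0.47 to 0.16 (*Cd3d*), −0.66 to 0.18 (*Cd2*), −0.37 to 0.36 (*Gzmb*) and −0.0042 to 0.69 (*Nkg7*). Members left at the floor in both groups gave no value after subtraction of negative controls.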
